A study of Rattus norvegicus with 102 samples.

Results

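AMPA receptors are glutamate-gated channels that carry most fast excitatory transmission in the brain. Each channel is an assembly of 4 pore-forming subunits encoded by Gria1, Gria2, Gria3 and Gria4. In the hippocampus these pore subunits are bound by auxiliary proteins of the TARP family, among them stargazin (Cacng2), TARP gamma-3 (Cacng3) and TARP gamma-8 (Cacng8), and by the cornichon homologs Cnih2 and Cnih3, which assist export, synaptic anchoring and channel gating. Genes were chosen by symbol alone, as these 4 pore subunits, 3 TARPs and 2 cornichons, and all 9 were found among the 26284 genes of the Illumina table and the 26341 genes of the Ion Proton table. The rule used the symbols and no measured value, though it was set with earlier results of these data known.

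RNA had been sequenced from dissected CA1, CA3 and dentate gyrus (DG) of 34 male Fisher 344 rats (spelled as in the labels, Fischer in the study's methods), with 1 library per rat and subfield in each table. The 10 young rats (Y) had reached 5 to 6 months and the 24 aged rats 17 to 22 months. Young and aged rats had been trained in the water maze, a test of finding a hidden platform from surrounding cues, before tissue was taken. Aged rats had been classed as unimpaired (OG, n = 12) or impaired (OB, n = 12) by a probe trial with the platform removed. The score compared the time spent in the goal quadrant and in the opposite quadrant. No allele, drug or surgery separated the groups, and aging was the only manipulation named by the labels.

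Values are normalized reads of the Illumina table unless Ion Proton is named, and log2 changes are differences of log2(value + 1). Assigned reads ran from 3.25 to 42.8 M per library for Illumina (median 10.7 M) and from 4.47 to 21.4 M for Ion Proton (median 9.74 M). In bulk tissue, fewer cells of a type and less RNA per cell cannot be told apart. Levels were compared within a gene and not between genes, since the values are not per length.

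The subfield labels did not hold equally in all rats. Rat numbers fell into 18 rats below 9000 (5 Y, 6 OG, 7 OB) and 16 rats from 9000 up (5 Y, 6 OG, 5 OB), a split that the labels did not explain. The study's methods name testing sites in Arizona and in Florida, whose numbers of young and of aged rats equal those of the sets from 9000 up and below 9000, respectively. Because the labels give no site for a rat, the sets are named here by rat number. The summed level of CA3 pyramidal markers (Bok, Iyd, Grik4, Coch and Elavl2) was highest in the rat's own CA3 library in 17 of the 18 rats below 9000 and in 0 of the 16 rats from 9000 up, in each of the 3 tables. In CA3 libraries that sum ran from 3861 to 5682 (median 5211) below 9000 and from 1354 to 3214 (median 2347) from 9000 up, without overlap. CA1 pyramidal markers in CA3 libraries had a median of 3068 below 9000 (range 885 to 6588) and of 6318 from 9000 up (range 2581 to 9595). All 4 tested CA1 markers and 3 of 4 tested dentate granule markers were higher there, and 3 of 3 CA2 markers lower, by limma at an adjusted p under 0.05 in both poly-A tables.

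Oligodendrocyte markers also moved with the rat number. Their sum in CA3 libraries had a median of 157223 below 9000 and 111604 from 9000 up, with 6 of 6 genes lower, while in CA1 and in DG 6 of 6 were higher from 9000 up. Astrocyte markers were higher from 9000 up for 3 of 6 genes in CA1 and in CA3 and 2 of 6 in DG, with medians of their sum in CA1 of 51820 below and 65523 from 9000 up. In CA1, 3 of 7 interneuron markers were lower (median sum 8464 below and 6526 from 9000 up) and 3 of 3 choroid plexus markers higher (median sum 62.0 and 577). No marker was at 0 in the Illumina table. CA1 and DG libraries kept their own markers more often: CA1 markers were highest in CA1 in 18 of 18 and 14 of 16 rats, and dentate granule markers were highest in DG in 17 of 18 and 12 of 16 rats. In all, 9 libraries from 6 rats (0 Y, 5 OG and 4 OB libraries) lay nearer to the mean marker profile of another subfield than to that of their label in both poly-A tables, and 5 of these rats were numbered from 9000 up. In rat R9781 the CA3 library lay nearer to DG and the DG library nearer to CA3. In rat R9869 the CA1 library lay nearer to DG and the DG library nearer to CA1. Whether these were exchanged was not tested, and all 9 libraries kept their labels in the main fits. In DG libraries the sum of CA3 pyramidal markers had a median of 3664 below 9000 and of 3822 from 9000 up. That sum was higher in CA3 than in DG in 17 of 18 rats below 9000 and in 1 of 16 rats from 9000 up. For the rats from 9000 up the labels CA3 and DG therefore name dissected pieces. The called subfield results of the 9 genes are given for both sets of rats. The part of this marker difference in the results below was not tested.

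Subunit RNAs were lower in CA3 than in DG for most of the family. Of the 9 genes, 6 were called lower in CA3 than in DG (Gria1, Gria2, Gria3, Gria4, Cacng3 and Cnih3) and 0 higher by limma, where 27.9% of the 14179 tested genes were called and 14.0% were called as lower in CA3. A gene was called where limma gave a Benjamini-Hochberg adjusted p under 0.05 with the same sign in both the Illumina and the Ion Proton table. Between CA1 and CA3, 3 of the 9 were called (Gria3, Cacng3 and Cnih3), all higher in CA1, against 14.1% of tested genes called and 7.12% called as higher in CA1. Without the 7 deeply sequenced rats Gria3 and Cnih3 lost that call. Between CA1 and DG 0 of the 9 were called by limma, edgeR or DESeq2, against 26.4% of tested genes by limma. Cacng2 was called there without 5 libraries, described beside that gene. They were left out for their own very high Ion Proton Cacng2, and most were from CA1. Leaving them out lowers Cacng2 of CA1 by itself, so that call is no independent result. Both edgeR and DESeq2 called 5 of the 9 lower in CA3 than in DG, all of the 6 except Cnih3, and the same 3 genes between CA1 and CA3. For CA1 against DG, 6 of the 9 had an unadjusted p under 0.05 in the Illumina table by limma (60.1% of tested genes), and 7 by edgeR and by DESeq2.

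Fitted within each set of rats, 3 of the 9 were called lower in CA3 than in DG in both, but none of the 9 was called in both sets. Below 9000 these were Gria4, Cacng3 and Cnih3 (22.9% of tested genes called), and from 9000 up Gria1, Gria2 and Cacng8 (21.6%). In the rats from 9000 up the CA3 marker sum was higher in CA3 than in DG in 1 of 16, as given above.

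Markers of other cell types differed between the same subfields. In CA3 against DG, 6 of 6 oligodendrocyte, 3 of 3 oligodendrocyte precursor, 5 of 6 microglia, 3 of 7 interneuron, 2 of 6 astrocyte and 1 of 3 choroid plexus markers were called higher in CA3, and 1 of 5 pan-neuronal markers lower. The oligodendrocyte sum had medians of 157223 in CA3 and 54488 in DG below 9000, and of 111604 and 117128 from 9000 up. In CA1 against CA3, 0 of 6 oligodendrocyte markers were called by limma, while 1 of 5 pan-neuronal markers was higher and 3 lower in CA1. That pooled 0 of 6 combines opposite differences. The medians of the oligodendrocyte sum in CA1 and CA3 were 106330 and 157223 below 9000, and 183920 and 111604 from 9000 up. In CA1 and DG the medians of the oligodendrocyte sum were 106330 and 54488 below 9000, and 183920 and 117128 from 9000 up. The part of these markers in the subunit changes, and in those of the other AMPA receptor genes given below, was not tested.

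In the Illumina table alone, an adjusted p under 0.05 was reached by 6 of 9 genes between CA1 and CA3 (35.4% of tested genes), by 6 of 9 between CA1 and DG (55.6%) and by 8 of 9 between CA3 and DG (55.6%). The median log2 change of the 9 genes was 0.23 from CA3 to CA1, -0.02 from DG to CA1 and -0.36 from DG to CA3, while the medians of all tested genes lay at 0.006, 0.003 and 0.010. Cacng3 and Cnih3 had the largest changes, and both differed between the rats below 9000 and those from 9000 up.

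**Figure D1:**
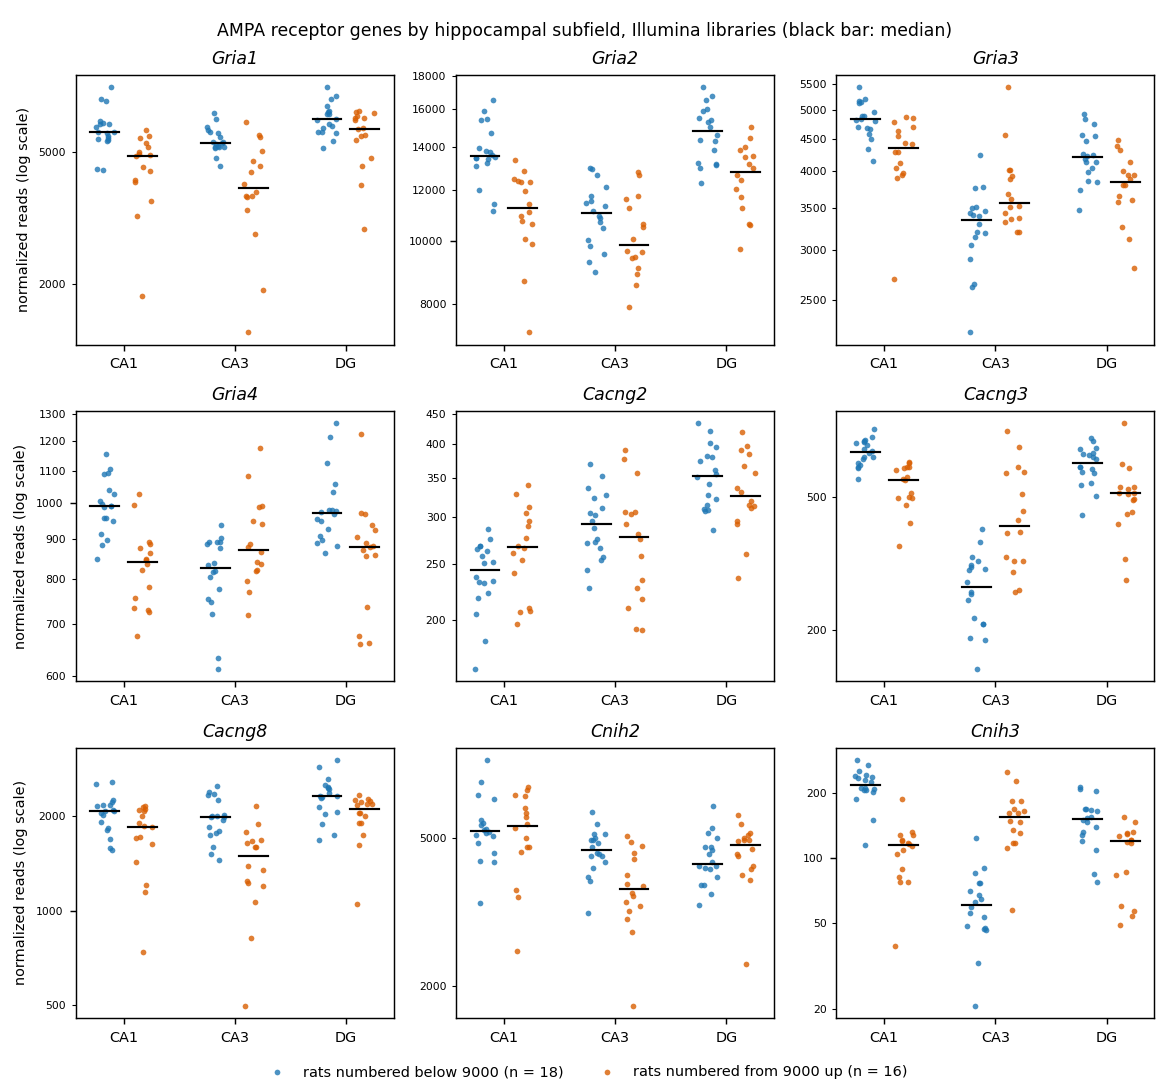
Normalized reads (log axis, Illumina table) of the 9 genes in CA1, CA3 and DG, with 1 point per library, blue for the 18 rats below 9000, orange for the 16 rats from 9000 up, and a black bar at the median. Cacng3 and Cnih3 fall in CA3 mainly among the blue points, whose Cacng3 values of 153 to 400 lie below all blue points of CA1 and DG.

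**Figure D2:**
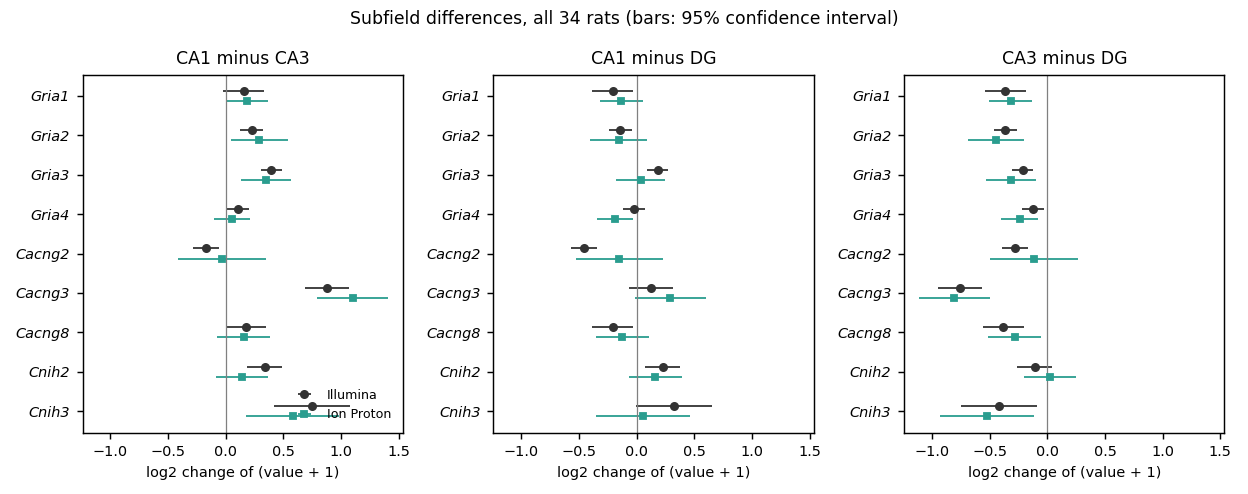
Log2 change of each gene for the 3 pairs of subfields in the Illumina and Ion Proton tables, with 95% confidence intervals from limma and a line at 0. The CA3 against DG panel lies mostly left of 0, with Cacng3 at -0.75 (Illumina) and -0.80 (Ion Proton).

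Start sites from RefSeq (build GRCr8) were found for 6 of the 9 genes, and the promoters of Cacng3 and Cnih3 are shown because these 2 genes differed most between subfields. Each sequence is the 250 bases before the start in the orientation of the gene, and capitals mark GGGCGG, the core of the Sp1 box, on either strand.
Cacng3 promoter, chr1:186632312-186632561, plus strand: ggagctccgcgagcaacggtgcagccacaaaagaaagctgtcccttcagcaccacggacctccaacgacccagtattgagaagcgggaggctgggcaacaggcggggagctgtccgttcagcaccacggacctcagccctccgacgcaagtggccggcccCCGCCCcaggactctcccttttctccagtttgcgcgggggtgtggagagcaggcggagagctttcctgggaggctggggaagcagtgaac
Cnih3 promoter, chr13:95631219-95631468, plus strand: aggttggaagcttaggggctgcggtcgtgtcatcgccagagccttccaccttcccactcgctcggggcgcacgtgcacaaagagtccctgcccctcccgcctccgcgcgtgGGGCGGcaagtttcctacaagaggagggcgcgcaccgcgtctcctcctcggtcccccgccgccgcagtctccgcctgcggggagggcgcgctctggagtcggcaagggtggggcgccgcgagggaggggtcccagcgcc
The GC content was 64.8% for Cacng3 and 72.4% for Cnih3, against a median of 51.2% over 33469 promoters. Each held 1 match to GGGCGG, which 30.5% of all promoters held. Cnih2 had 3 matches, and Cacng2, Cacng8 and Gria4 had 0 in these windows. These matches describe letters only. The windows belong to another build than the rn5 alignment of the reads, and nothing measured in this study bears on binding there.

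Cacng3 (ENSRNOG00000012362, chromosome 1) encodes TARP gamma-3, an auxiliary subunit of forebrain neurons. Its lowest, median and highest values were 358, 620.3 and 796 for CA1, 153, 318 and 787 for CA3, and 283, 569.9 and 829.6 for DG. The 3 ranges overlapped over all rats. Among the 18 rats below 9000 the values were 567 to 796 in CA1, 153 to 400.1 in CA3 and 443 to 751 in DG, so that CA3 overlapped neither of the other subfields. Among the 16 rats from 9000 up they were 358 to 637 in CA1, 259.6 to 787 in CA3 and 283 to 829.6 in DG, which overlapped throughout.

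Cacng3 was higher in CA1 than in CA3 by 0.88 (SE 0.096, limma adjusted p = 1.29e-12), with 1.10 in the Ion Proton table (adjusted p = 3.96e-08). The direction held in 29 of 34 rats, 18 of 18 below 9000 and 11 of 16 from 9000 up. It was also lower in CA3 than in DG, with a change of -0.75 (adjusted p = 9.25e-11) and of -0.80 in the Ion Proton table (adjusted p = 2.13e-05), and CA3 was above DG in 0 of 18 and 7 of 16 rats. Within the rats below 9000 the 2 changes were 1.37 and -1.24, and within those from 9000 up they were 0.32 and -0.20, the latter pair not called. The difference between the sets of rats was itself called for both changes, at 1.05 (SE 0.15) and -1.04 (SE 0.15). Without the 9 libraries against their label the changes over all rats were 0.98 and -0.83. In 5 libraries with very high Ion Proton Cacng2, described beside that gene, Ion Proton Cacng3 was also far from Illumina, high in the 4 CA1 libraries (2503 against 727 in R2232) and low in the CA3 library (29.1 against 257 in R1931). Without these 5 the Ion Proton changes of Cacng3 were 0.84 and -0.70, both called.

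Cnih3 (ENSRNOG00000022724, chromosome 13) encodes a cornichon homolog related to Cnih2. Over the 34 rats the lowest, median and highest values were 39.3, 169 and 286 for CA1, 20.6, 87.5 and 250.4 for CA3, and 49.0, 129.6 and 213 for DG. All 3 ranges overlapped. Below 9000 the medians were 219.6, 60.8 and 152, with CA3 lowest in each of the 18 rats. From 9000 up they were 115, 155 and 120.2, and CA3 was above CA1 in 13 and above DG in 14 of the 16 rats.

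Over all rats Cnih3 was higher in CA1 than in CA3 by 0.75 (SE 0.166, limma adjusted p = 0.00015; Ion Proton 0.58, adjusted p = 0.0384), and lower in CA3 than in DG (change -0.42, adjusted p = 0.0262; Ion Proton -0.52, adjusted p = 0.0412). These pooled values combine opposite signs. CA1 against CA3 gave 1.86 below 9000 and -0.50 from 9000 up, and the difference of 2.36 (SE 0.23) was called. For CA3 against DG the values were -1.29 and 0.57, and their difference of -1.86 (SE 0.23) was also called. In the rats whose CA3 libraries carried the CA3 markers, Cnih3 RNA was thus lowest in CA3. Without the 9 libraries against their label the changes were 0.84 (Ion Proton adjusted p = 0.0143) and -0.45 (Ion Proton adjusted p = 0.0314), both still called by limma. With the rat as a block both calls were lost (Ion Proton adjusted p = 0.0503 and 0.0521), and each was also lost without any 1 of 18 (CA1 against CA3) or 15 (CA3 against DG) of the 34 rats.

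**Figure D3:**
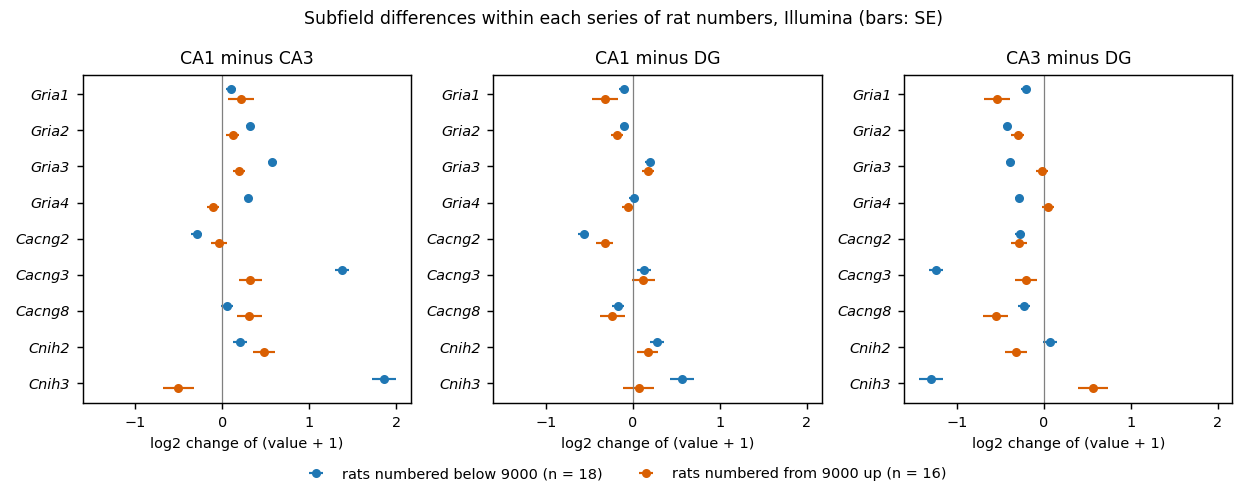
Log2 change (± SE, Illumina table) of each gene for the 3 subfield comparisons, fitted within the rats below 9000 and within the rats from 9000 up. Cnih3 changes sign, from 1.86 to -0.50 for CA1 against CA3 and from -1.29 to 0.57 for CA3 against DG.

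The remaining TARPs, Cacng8 and Cacng2, were not called in any subfield comparison by the limma model over all libraries without a block. Cacng8 (ENSRNOG00000014348, chromosome 1) encodes TARP gamma-8, the TARP for which the hippocampus is best known. In normalized reads, the lowest, median and highest values were 737, 2014 and 2579 for CA1, 497, 1761 and 2509.7 for CA3, and 1051 (lowest), 2209.6 (median) and 3029 (highest) for DG. The ranges overlapped, and CA3 was above DG in 5 of 34 rats. The change for CA3 against DG of -0.38 (limma adjusted p = 0.00015) was not called because the Ion Proton value of -0.28 had an adjusted p of 0.0554. Below 9000 it was -0.23 and not called, and from 9000 up it was -0.55 and called. With the rat as a block it was called over all rats (Ion Proton adjusted p = 0.024). CA1 differed from CA3 by 0.18 (adjusted p = 0.117).

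Cacng2 (ENSRNOG00000006226, chromosome 7) encodes stargazin, the TARP first known from the cerebellum. Across rats the lowest, median and highest values were 165, 256 and 341 for CA1, 193, 284 and 391 for CA3, and 237, 339.7 and 434 for DG. The ranges overlapped, with DG highest by median. CA1 was below CA3 in 27 of 34 rats, with a change of -0.17 (limma adjusted p = 0.0115) that the Ion Proton table gave as -0.03 (adjusted p = 0.935). CA1 was below DG in 31 of 34 rats, with a change of -0.45 (SE 0.057, limma adjusted p = 5.93e-11), but the Ion Proton change of -0.15 had an adjusted p of 0.594. Ion Proton medians of Cacng2 were 304 in CA1 and 441 in DG, and CA1 was below DG in 26 of 34 rats there and in 30 of 34 in the WT table. The Ion Proton value was far above the Illumina value in 5 libraries, 4 from CA1 and 1 from CA3. In CA1 of unimpaired rat R2232 it was 4853 on Ion Proton and 251 on Illumina, and in CA3 of impaired rat R1931 it was 3157 and 227. Without these 5 libraries, chosen after the data were seen and by the level of Cacng2 itself (Ion Proton value over 2000), the Ion Proton changes were -0.56 for CA1 against DG (limma adjusted p = 8.46e-07) and -0.35 for CA1 against CA3 (adjusted p = 0.00357), and both comparisons were then called. The source of the gap was not tested.

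Cnih2 (ENSRNOG00000020247, chromosome 1), the cornichon that binds AMPA receptors of hippocampal pyramidal neurons, ranged from 2474 to 8124 in CA1 (median 5285.6), from 1765 to 5869 in CA3 (median 4427) and from 2294 to 6119.8 in DG (median 4534). The ranges overlapped. It was higher in CA1 than in CA3 in 28 of 34 rats, by 0.34 (limma adjusted p = 0.000193), yet not called, since the Ion Proton change of 0.14 had an adjusted p of 0.461. The Illumina change was 0.21 below 9000 and 0.48 from 9000 up, and the Ion Proton change was -0.11 and 0.43. CA3 against DG gave -0.11 (adjusted p = 0.213), with 0.07 below 9000 and -0.32 from 9000 up.

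Among the pore subunits, Gria3 was called in both comparisons of CA3. Gria3 (ENSRNOG00000007682, chromosome X) encodes GluA3, which pairs mainly with GluA2. Its lowest, median and highest values were 2700.2, 4683 and 5451 for CA1, 2219, 3431 and 5449.7 for CA3, and 2807, 4033 and 4931 for DG. Ranges overlapped, with CA1 above CA3 in 32 of 34 rats. CA1 was above DG in 31 of 34 rats on Illumina and in 20 of 34 on Ion Proton, and that comparison was not called. The change for CA1 against CA3 was 0.40 (SE 0.048, limma adjusted p = 3.78e-11; Ion Proton 0.35, adjusted p = 0.0159), and for CA3 against DG it was -0.21 (adjusted p = 7.34e-05; Ion Proton adjusted p = 0.0198). Below 9000 CA1 against CA3 gave 0.58 (called) and from 9000 up 0.19 (not called), and the difference of 0.39 (SE 0.09) was called. CA3 against DG gave -0.39 and -0.02, neither called. Without the 7 deeply sequenced rats the change for CA1 against CA3 was 0.38, which was not called (Ion Proton limma adjusted p = 0.0569).

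Gria2 (ENSRNOG00000028589, chromosome 2) encodes GluA2, the subunit that keeps calcium out of the channel. Over the 34 rats the lowest, median and highest values were 7219, 12659 and 16531 for CA1, 7910.4, 10662 and 12965 for CA3, and 9737, 13691.5 and 17331 for DG. Ranges overlapped, but CA3 was below DG in 31 of 34 rats. CA1 was below DG in 29 of 34 rats on Illumina and in 19 of 34 on Ion Proton. That comparison was not called over all rats, and was called from 9000 up. The change for CA3 against DG was called at -0.36 (SE 0.051, limma adjusted p = 1.99e-09; Ion Proton -0.44, adjusted p = 0.00342). It was -0.42 below 9000 and -0.30 from 9000 up, called in the latter. Against CA1 the change of 0.23 had an Illumina adjusted p of 0.000202 and an Ion Proton adjusted p of 0.0989, and was not called (0.32 below 9000 and 0.12 from 9000 up), though with the rat as a block it was (Ion Proton adjusted p = 0.0493).

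Gria1 (ENSRNOG00000045816, chromosome 10) encodes GluA1, the subunit best known for activity-dependent insertion at synapses. In normalized reads, the lowest, median and highest values were 1848, 5449.7 and 7839 for CA1, 1435, 5170.2 and 6539 for CA3, and 2938, 6157 and 7837 for DG. The ranges overlapped, with CA3 above DG in 4 of 34 rats. CA3 was lower than DG, with a change of -0.36 (SE 0.090, limma adjusted p = 0.000359; Ion Proton -0.32, adjusted p = 0.00575), with -0.21 below 9000 (not called) and -0.53 from 9000 up (called). CA1 against CA3 gave 0.16 (adjusted p = 0.171).

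Within each subfield, 1 and the same library held the lowest Gria1, Gria2, Cacng8 and Cnih2 values of the 34. These libraries were CA1 of impaired rat R9870, CA3 of unimpaired rat R9869 and DG of unimpaired rat R9865. The last of these lay nearer to the CA1 than to the DG marker profile in all 3 tables, so that it stands against its label, and held the highest Cacng3 value of DG. The CA3 library of R9869 held the highest Gria3, Cacng2 and Cacng3 values of CA3.

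Gria4 (ENSRNOG00000006957, chromosome 8) encodes GluA4, a subunit abundant in interneurons. Across rats the lowest, median and highest values were 676, 904 and 1154 for CA1, 612, 839.6 and 1177 for CA3, and 659, 923.6 and 1265 for DG, with overlap throughout. CA3 was lower than DG, with a change of -0.13 (limma adjusted p = 0.0201; Ion Proton -0.24, adjusted p = 0.0146). That change was -0.29 and called below 9000 and 0.05 from 9000 up. CA1 was above CA3 in 18 of 18 rats below 9000 and in 5 of 16 from 9000 up.

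Levels in the CA3 libraries themselves differed between the sets of rats for 4 of the 9 genes, against 22.5% of tested genes. From 9000 up Cacng3 was higher by 0.71 and Cnih3 by 1.32, while Gria1 (-0.52) and Cacng8 (-0.53) were lower. In CA1 the genes called lower from 9000 up were Gria1 (-0.40), Gria2 (-0.31) and Cnih3 (-1.04), against 8.94% of tested genes. In those CA1 libraries astrocyte, oligodendrocyte and choroid plexus markers were higher and interneuron markers lower, as given above. Lower there, too, were 1 of 4 tested CA1 pyramidal markers (median sum 11878 below and 10944 from 9000 up) and 1 of 5 pan-neuronal markers (49606 and 47747). In CA3, where Gria1 and Cacng8 were lower, 1 of 5 pan-neuronal markers was lower (median sum 67164 below and 53270 from 9000 up). The part of these markers was not tested. In DG it was Cacng3 (-0.33), against 6.66%. There 6 of 6 oligodendrocyte markers (median sum 54488 below and 117128 from 9000 up), 2 of 6 astrocyte markers and 2 of 3 choroid plexus markers (14.5 and 307) were higher from 9000 up, and their part was not tested. The subfield change itself differed between the sets of rats for 3 of the 9 genes in CA1 against CA3 (background 13.7%), for 2 of 9 in CA3 against DG (16.8%), and by limma for 0 of 9 in CA1 against DG (0.106%), where 2 of 9 (Cacng2 and Cnih3) had an unadjusted Illumina p under 0.05 by limma (14.8% of tested genes) and by edgeR, and edgeR called 0.

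Because GluA2 sets the calcium permeability of the channel, the RNA of each other pore subunit was set against that of Gria2 in the same library. The log2 ratio of Gria3 to Gria2 had a mean of -1.44 (CA1), -1.61 (CA3) and -1.76 (DG). It was higher in CA1 than in DG in 33 of 34 rats and than in CA3 in 28. For Gria1 to Gria2 the means were -1.27 (CA1), -1.21 (CA3) and -1.21 (DG). For Gria4 to Gria2 they were -3.76 (CA1), -3.64 (CA3) and -3.88 (DG). On Ion Proton the Gria4 means were -3.77 (CA1), -3.54 (CA3) and -3.74 (DG), so that CA1 and DG changed order. The Gria4 ratio was higher in CA1 than in DG in 24 of 34 rats on Illumina and in 18 of 34 on Ion Proton. As ratios of reads, these describe differences between subfields and not the proportions of the subunits. In CA3 the ratios of the rats below 9000 and from 9000 up were -1.01 and -1.42 for Gria1, -1.76 and -1.45 for Gria3, and -3.76 and -3.51 for Gria4.

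Levels of some genes varied together from rat to rat. Within each subfield and set of rats, all 36 pairs of the 9 genes were correlated on the log2 scale (216 relations), with permutation tests of 100000 draws and Benjamini-Hochberg adjustment over all of them. Pairs with an adjusted p of r under 0.05 in both sets of rats numbered 6 of 36 in CA1, 6 of 36 in CA3 and 2 of 36 in DG, each positive. All pairs of the 14179 tested genes were held to another cut, the smallest r among the counted pairs of the 9 genes in each set. From 9000 up this cut was 0.74 (CA1), 0.70 (CA3) and 0.69 (DG). An r of the same sign and at least as far from 0 in both sets was found for 0.291% (CA1), 0.697% (CA3) and 0.587% (DG). A smaller r can reach an adjusted p under 0.05, so these shares are no background for the counts of 36 pairs. Gria1 with Gria2 and Cacng8 with Cnih2 had an adjusted p of r under 0.05 in both sets for all 3 subfields. On Ion Proton, r of Gria1 with Gria2 below 9000 was -0.02 in CA1, -0.38 in CA3 and -0.26 in DG, while Cacng8 with Cnih2 gave 0.73 to 0.97 in every subfield and set.

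In CA3 below 9000, Cacng8 with Cnih2 gave r = 0.77 (permutation p = 0.00013, adjusted 0.00094) and rho = 0.86 (permutation p = 4e-05, adjusted 0.00096). From 9000 up the same pair gave r = 0.94 and rho = 0.91, each with a permutation p of 1e-05, the smallest that the draws can give (adjusted 0.0002 and 0.00036). Without the 2 farthest libraries r was 0.88 and 0.84, and in the Ion Proton table it was 0.97 and 0.96. The relation thus held in both tables and in both sets of rats.

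For Gria1 with Cacng8 in CA3, r was 0.59 (permutation p = 0.0096, adjusted 0.035) below 9000 and 0.96 (permutation p = 1e-05, adjusted 0.0002) from 9000 up. The matching rho was 0.63 (permutation p = 0.0049, adjusted 0.023) and 0.87 (permutation p = 7e-05, adjusted 0.001). Without the 2 farthest libraries r was 0.59 and 0.87, and on Ion Proton 0.60 and 0.81. This pair, too, was positive in both tables.

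Gria3 with Cacng3 in CA3 gave r = 0.84 (permutation p = 2e-05, adjusted 0.00029) below 9000 and 0.70 (permutation p = 0.0013, adjusted 0.0064) from 9000 up. Its rho was 0.80 (permutation p = 0.00017, adjusted 0.002) and 0.73 (permutation p = 0.0019, adjusted 0.011). Without the 2 farthest libraries r was 0.72 and 0.64, but on Ion Proton it was -0.30 and 0.33, so that the relation was not found there. In DG the relation of Cacng8 with Cnih2 from 9000 up rested on 2 libraries, since r fell from 0.86 to 0.44 without them. The part of dissection or depth in these relations was not tested.

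**Figure D4:**
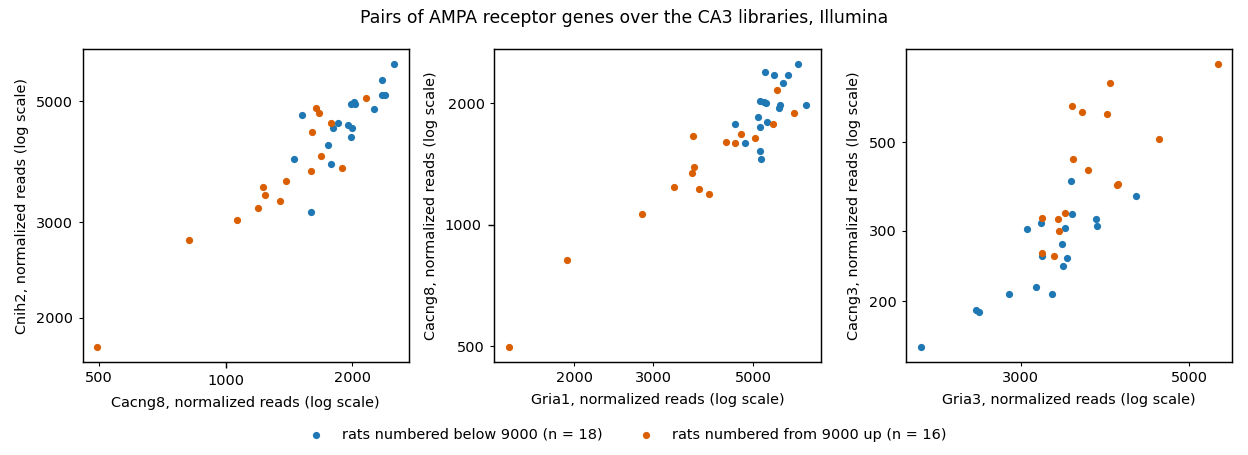
CA3 libraries plotted as normalized reads of 1 gene against another (log axes, Illumina table) for Cacng8 and Cnih2, Gria1 and Cacng8, and Gria3 and Cacng3, with colors for rats below 9000 and from 9000 up. Cacng8 and Cnih2 follow each other in both sets (r = 0.77 and 0.94), while the sets are offset in the plot of Gria3 and Cacng3.

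None of the 9 genes passed the test for age with limma. Aged rats were compared with young rats within a subfield, and a gene counted as changed with p under 0.01 in the Illumina table and a one-sided p under 0.05 of the same sign in the Ion Proton table. By limma 0 of 9 genes met this in each subfield, against a background of 0.832% (CA1), 0.393% (CA3) and 1.07% (DG), and backgrounds this low leave a count of 0 of 9 uninformative about the family. An unadjusted p under 0.05 was reached by 0 of 9 genes in CA1 (6.15% of tested genes), 1 of 9 in CA3 (3.31%) and 0 of 9 in DG (5.20%), by limma, edgeR and DESeq2 alike, and edgeR counted 1 gene, Cacng2 in CA3, as changed.

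Cacng2 in CA3 had lowest, median and highest values of 193, 239 and 337 in young rats, 227, 305 and 391 in unimpaired rats, and 227, 282 and 378 in impaired rats. The groups overlapped, with the young median lowest. In the WT table the medians were 85.4, 85.1 and 86.2. The change from young to aged rats was 0.30 (SE 0.085, 95% interval 0.13 to 0.47, limma p = 0.0011, adjusted p = 0.39), and the Ion Proton change of 0.29 had a one-sided limma p of 0.107, and the WT change was 0.09 (limma p = 0.462). The aged rats include R1931, whose CA3 library had the very high Ion Proton value given above. The Illumina change was 0.07 (limma p = 0.463) below 9000 and 0.53 (limma p = 0.000168) from 9000 up, the rats whose CA3 libraries lacked the CA3 marker pattern. Whether these 2 values differ was not tested.

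Each aged class was also set against the same young rats. Unimpaired rats gave 0 of 9 by limma in CA1 (0.655%), CA3 (0.281%) and DG (0.649%), and impaired rats 0 of 9 in CA1 (0.810%), CA3 (0.344%) and DG (0.970%), with 0 of 9 by edgeR and DESeq2 as well. Unadjusted p-values under 0.05 were found in 1 of 9 genes in CA3 of each class by all 3 tools (2.89% of tested genes for unimpaired, 3.07% for impaired rats) and in 0 of 9 in DG (4.70% and 5.05%). In CA1 the count was 0 of 9 by limma (4.86% and 7.81%), and 1 of 9 by edgeR and DESeq2 for unimpaired rats only. In CA3 the gene was Cacng2, at 0.33 (limma p = 0.00167) for unimpaired and 0.27 (limma p = 0.00865) for impaired rats. Below 9000 these were 0.16 for unimpaired and near 0 for impaired rats, and from 9000 up 0.50 and 0.57. The comparisons share the young rats.

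Cognition was tested as impaired against unimpaired aged rats under the same rule, and limma counted 0 of 9 genes in CA1 (background 0.620%), CA3 (0.0211%) and DG (0.121%). In CA1, 2 of the 9 had an unadjusted p under 0.05 by limma, edgeR and DESeq2 (5.71% of tested genes), and 0 of 9 did in CA3 (1.40%) and DG (3.85%).

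Gria4 in CA1 ran from 676 to 998 (median 848) in unimpaired and from 821 to 1154 (median 951) in impaired rats. The groups overlapped. From unimpaired to impaired rats the change was 0.17 (SE 0.065, limma p = 0.0137, adjusted p = 0.711), with 0.15 on Ion Proton, 0.09 below 9000 and 0.23 from 9000 up. Cnih2 in CA1 ran from 3615 to 8124 (median 5728) in unimpaired and from 2474 to 5688 (median 4958) in impaired rats, also with overlap. The change from unimpaired to impaired rats was -0.29 (SE 0.126, limma p = 0.0313, adjusted p = 0.848), with -0.22 on Ion Proton. Without the 1 CA1 library against its label, that of unimpaired rat R9869, the change was -0.34 (limma p = 0.0076) and then met the rule. The lowest Cnih2 value, 2474, came from impaired rat R9870, whose CA1 library also held the lowest Gria1, Gria2 and Cacng8 values of CA1.

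Interaction terms compared the age and the cognition effect between subfields, and limma called 0 of 9 genes, and 0 of 14179 genes in all, in each of the 6 tests. An unadjusted p under 0.05 was found for Cacng2 for the age effect in CA1 against CA3 (-0.29, limma p = 0.0188, 1.89% of tested genes) and in CA3 against DG (0.26, limma p = 0.0353, 1.03%), and for Gria4 for the cognition effect in CA1 against DG (limma p = 0.00553, 3.74%). The other 3 tests gave 0 of 9, where 0.353% (age, CA1 against DG), 5.22% (cognition, CA1 against CA3) and 2.36% (cognition, CA3 against DG) of tested genes had such a p. Neither edgeR nor DESeq2 called any of the 9 there.

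**Figure D5:**
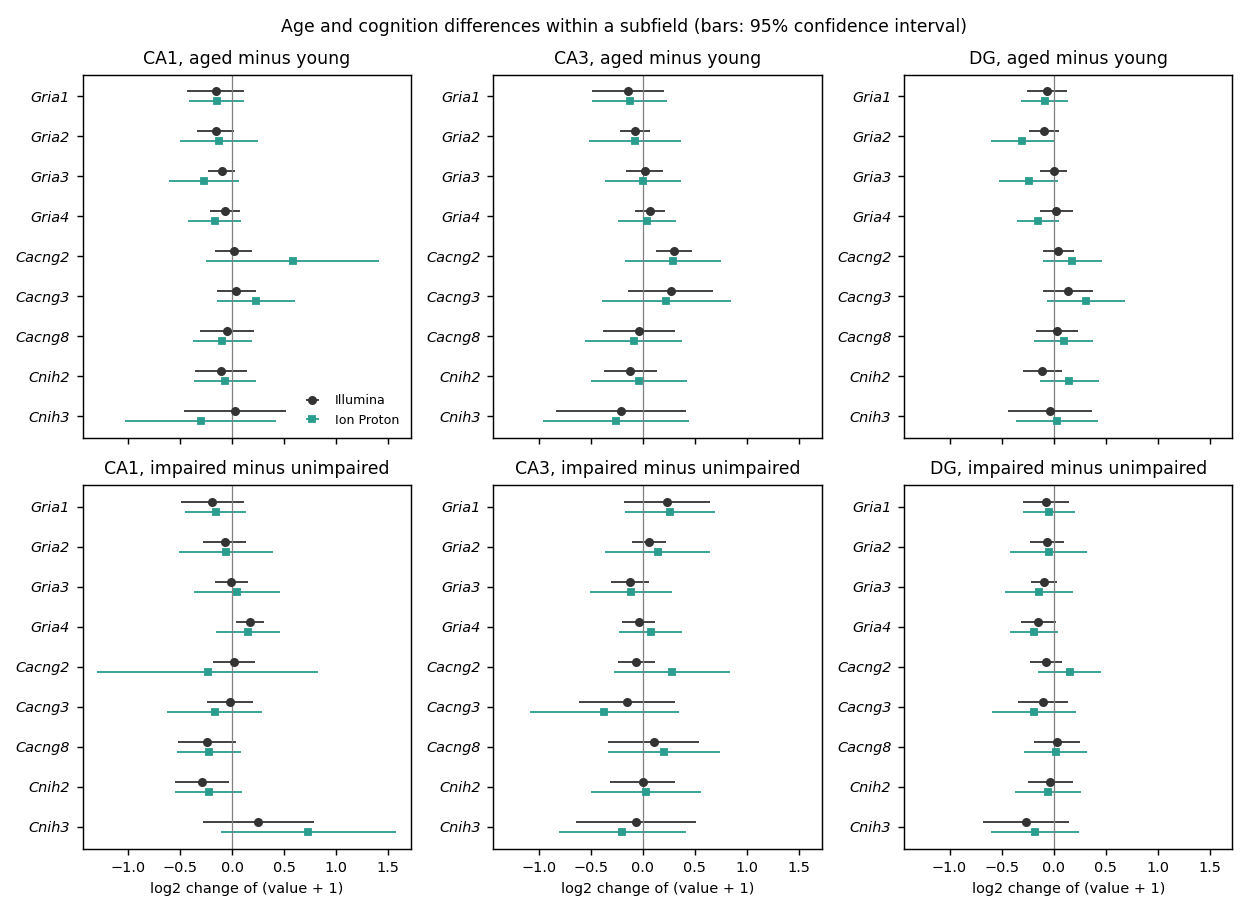
Log2 change with 95% confidence intervals of each gene for aged against young (top) and impaired against unimpaired (bottom) in CA1, CA3 and DG, in the Illumina and Ion Proton tables. Cacng2 in CA3 for age lies at 0.30 on Illumina, with an interval of 0.13 to 0.47, and no gene met the rule in both tables.

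A wider list of 29 AMPA receptor genes (other TARPs and auxiliary subunits, anchoring proteins, neuronal pentraxins and trafficking factors) was read in the same fits, and 28 were tested. In CA1, 3 were called higher and 4 lower than in CA3 (14.1% of all tested genes were called), and 3 higher and 10 lower than in DG (26.4%). In CA3, 3 were higher and 9 lower than in DG (27.9%). Median changes of the list were -0.01, -0.12 and -0.12.

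The list held 3 genes of the neuronal pentraxin family, whose proteins gather AMPA receptors at synapses. The membrane-bound pentraxin receptor Nptxr had a median of 15275 in CA1, below its medians of 26200.1 for CA3 and 25858 for DG. CA1 was below CA3 in 31 and below DG in 33 of 34 rats. Its changes were -0.75 for CA1 against CA3 (-1.11 below 9000 and -0.35 from 9000 up) and -0.79 for CA1 against DG (-0.73 and -0.85). The study had picked Nptxr from these samples for impaired against unimpaired rats in CA1. In that comparison the Illumina change was -0.29 (limma p = 0.0157, adjusted p = 0.724) and the Ion Proton change -0.19 (one-sided limma p = 0.107), which missed the rule given above for cognition. Nptx1 was lower in CA1 than in DG in 33 of 34 rats, with a change of -1.20 (-1.31 and -1.08). Its change for CA1 against CA3, -0.55 over all rats, was -1.13 below 9000 and 0.10 from 9000 up. Nptx2, named here after its values were seen, was not called between CA1 and CA3 (0.15, CA1 above CA3 in 22 of 34 rats) or between CA1 and DG (-0.18), and was called lower in CA3 than in DG (-0.32).

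Olfm1, a secreted olfactomedin found with AMPA receptor complexes, was lower than in DG in both other subfields, with changes of -0.66 in CA1 (-0.71 and -0.60) and -0.81 in CA3 (in 33 of 34 rats). Grip2, a PDZ scaffold of GluA2, was above DG in CA1 by 0.83 (0.95 and 0.70) and in CA3 by 0.86 (1.21 and 0.47 in the 2 sets). Cacng5, the TARP gamma-5, was above DG in CA3 by 1.24, with 2.55 below 9000 and -0.23 from 9000 up. Gsg1l, an auxiliary subunit that slows recovery of the channel, was lower in CA3 than in DG, with a change of -0.69 (-1.22 and -0.09). A small change of 0.19 for CA1 against DG was called for the TARP Cacng7, as was 0.07 for CA3 against DG, and the scaffold Dlg1 was called at 0.17 for CA1 against DG.

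Higher in CA1 than in CA3 were the auxiliary subunit Shisa7 (0.36, with 0.54 below 9000 and 0.16 from 9000 up), the synapse differentiation gene Syndig1 (0.34, with 0.25 and 0.45) and the receptor assembly factor Frrs1l (0.26, with 0.23 and 0.30). Lower in CA1 were the scaffold Grip1 (-0.25) and Nsf (-0.24), an ATPase that binds GluA2. The change between subfields differed between the sets of rats for 8 of the 28 genes in CA1 against CA3 (13.7% of all tested genes) and for 7 in CA3 against DG (16.8%).

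For age and cognition 1 gene of the list met the rule, Adarb1, the enzyme that edits glutamate receptor RNA, for age in CA3, where 0.393% of tested genes did. The change from young to aged rats was 0.23 (SE 0.076, limma p = 0.00411, adjusted p = 0.759), with 0.23 on Ion Proton (one-sided limma p = 0.0107). The change was 0.07 below 9000 and 0.39 from 9000 up, and without the libraries against their label it was 0.21 (limma p = 0.0104), which missed the rule.

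The genes most like each of the 9 were found by the correlation of log2 values over all Illumina libraries among the 14179 tested genes. These libraries share rats, depth and subfield, so each r is a description. Gria1 was most like Lrrn2 (r = 0.93) and Lppr4 (0.92), and Cacng8 most like Lrrn2 (0.94) and Wasf1 (0.90), with 0.72, 0.73, 0.90 and 0.77 in the Ion Proton table. For Cacng3 these were Extl1 (0.92, Ion Proton 0.84) and RGD1559864 (0.89, Ion Proton 0.69), and for Cnih3 Spon1 (0.88, Ion Proton 0.52) and Sema4f (0.87, Ion Proton 0.56). Gria2 was most like Dlg3 (0.90, Ion Proton 0.35) and Ppfia2 (0.89, Ion Proton 0.73), Gria3 like Ccsap (0.84, Ion Proton 0.52) and Sidt1 (0.84, Ion Proton 0.43), and Gria4 like Rgs17 (0.74, Ion Proton 0.53) and Prkacb (0.72, Ion Proton 0.12). Cacng2 was most like Camkk2 (0.87, Ion Proton -0.04) and Src (0.83, Ion Proton 0.17), and Cnih2 like Cdc40 (0.90, Ion Proton 0.15) and Scn3b (0.89, Ion Proton 0.07). Each of the 18 values was lower in the Ion Proton table, which is no comparison of the tables, since the genes were picked for the highest r on Illumina.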

How the data were processed

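Total RNA of CA1, CA3 and DG had been extracted from 34 rats and sequenced, giving 3 deposited tables with 1 library per rat and subfield. The authors divided gene counts by a DESeq2 size factor per library, so the deposited values are a normalized signal and not raw counts. Per the labels and the study's methods, Illumina poly-A reads were demultiplexed with bcl2fastq (2.17), trimmed with cutadapt (1.8.3), aligned to rn5 with STAR (2.5) and counted with featureCounts (1.4.4), and DESeq2 (1.16.1) gave the size factors. Versions come from the submitters' processing notes, and the study's methods name an earlier DESeq2 version. Ion Proton poly-A reads were aligned to rn5 with TopHat2 and Bowtie2. For the table the submitters call WT, the library type and aligner are not given in the sources used here, and it served only as an alternative. Labels and methods name different TruSeq kits, so whether strand was counted is unknown and overlapping genes may share reads. Each table was normalized on its own and tests were made within a table.

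All values were whole multiples of 1 step per library (100% within a tolerance of 0.001), and depth is the sum of these recovered reads. Rows without a symbol numbered 48 per table and held at most 0.159% of reads. Every column matched 1 sample. Genes with a mean of at least 10 were log-transformed as log2(value + 1) and tested with limma (3.58.1, in R 4.3.3, variance trend fitted on the mean), a scale that understates the change of low genes. One limma model over every library of a table served the subfield comparisons, and separate models per subfield served age and cognition. The rat number pairs the 3 libraries of 1 animal, and deviations of a rat's libraries correlated over 0.1 in 13 (CA1 and CA3), 26 (CA1 and DG) and 10 (CA3 and DG) of 34 rats. The fit with the rat as a block was an alternative, as were edgeR (4.0.16) and DESeq2 (1.42.0) on the recovered reads, quantile normalization, a pseudocount of 0.1, no filter, the WT table and subsets of rats. Fits were tested on simulated data. Ion Proton libraries came from the same rats, so they bear on technical error only.

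The 9 genes, the wider list and the marker lists were chosen with earlier results of these data known. Named from the wider list were up to 3 called genes per direction with the largest change in each subfield comparison, Nsf in addition as the last of the 4 called lower in CA1 than in CA3, and every gene passing for age or cognition, and 2 most similar genes were named for each of the 9. The split at rat number 9000 came from the labels' rat numbers, and the test of its difference was added after the data were seen.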

Additional observations from a re-analysis of the deposited data

Results flagged for a closer look

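The change between subfields differed between rats below 9000 and rats from 9000 up in 5 cases, each tested with an interaction term in limma and called in both poly-A tables. For CA1 against CA3 the value below 9000 minus that from 9000 up was 0.39 for Gria3, 1.05 for Cacng3 and 2.36 for Cnih3. For CA3 against DG it was -1.04 for Cacng3 and -1.86 for Cnih3. The CA3 libraries of the rats from 9000 up lacked the CA3 marker pattern, and the part of this in the 5 differences was not tested.

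In the 54 groups of 10 young libraries, 5 held a library set apart from the other 9 by Dixon's ratio of gap to range (critical value 0.466), where chance gives about 1 in 20. On Illumina, Gria1 in DG of rat R9881 was lowest at 3974, the next being 5874 (ratio 0.5905). Cacng3 in CA1 of rat R9879 was lowest at 419, the next being 566 (ratio 0.5493). On Ion Proton, Cacng3 in CA3 of rat R9879 was highest at 767, the next being 462 (ratio 0.4895). In DG of rat R2221, Cacng8 was highest at 2051, the next being 1309 (ratio 0.5394), and Cnih2 was highest at 4469, the next being 3128 (ratio 0.495).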

How the results depend on the processing

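Among the log2 changes of the 9 genes, and of Adarb1 for age in CA3, under all alternatives, 2078 stayed on the same side of the threshold, 21 lost the call, 15 gained it and 3 that were called over all rats changed sign. Of the 2078, 175 had the other sign without being called in either fit, such as Cnih2 for CA3 against DG below 9000 (0.07). The 3 sign changes of called genes were in the rats from 9000 up, namely Cnih3 for CA1 against CA3 (-0.50) and CA3 against DG (0.57), and Gria4 for CA3 against DG (0.053). Rats from 9000 up alone gave 0 called genes between CA1 and CA3 (3.88% of all tested genes), 1 between CA1 and DG (Gria2, 20.5%) and 3 between CA3 and DG (21.6%), where rats below 9000 gave 3 other genes (22.9%). These fits hold fewer rats. For the wider list, rats from 9000 up gave 1 called gene for CA1 against CA3 and 7 for CA1 against DG, and leaving out the 7 deeply sequenced rats gave 4 for CA1 against CA3. Cnih3 lost the call for CA3 against DG under edgeR, DESeq2, the WT table and no filter, and for CA1 against CA3 with no filter. Without the deeply sequenced rats Gria3 (Ion Proton adjusted p = 0.0569) and Cnih3 also lost the call for CA1 against CA3, and Cnih3 that for CA3 against DG, which Gria4 lost under quantile normalization.

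Without the 5 libraries of very high Ion Proton Cacng2, an alternative added after the data were seen, 1 gene (Cacng2) was called between CA1 and DG and 4 between CA1 and CA3.

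Among the 9 genes the count for age and cognition moved between 0 and 1, with 1 for age in CA3 under edgeR (Cacng2), 1 for impaired against young in CA3 under quantile normalization (Cacng2, 0.30), 1 for cognition in CA1 without libraries against their label (Cnih2), and 1 for cognition in DG from 9000 up (Cnih3, -0.76). For unimpaired against young in CA1 there was 1 below 9000 (Cacng3, 0.24) and 1 with the number split as a covariate (Gria4, -0.15). The wider list gave 0 for age in CA3 with the WT table, without libraries against their label and below 9000, 2 from 9000 up, and 1 for age in DG with the covariate. The split of the subfield changes by rat number, added after the data were seen, gave 5 genes for CA1 against CA3 without the deeply sequenced rats. The causes were not tested.

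The mean log2 ratio of Gria1 to Gria2 was -0.49, -0.39 and -0.51 on Ion Proton in CA1, CA3 and DG. That of Gria3 to Gria2 was -1.89, -2.05 and -2.20 in the WT table, and that of Gria4 to Gria2 in DG was -3.59 there.

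Leaving out 1 rat in turn moved the count for cognition in CA1 between 0 and 1 (1 without rat R9869, Cnih2), for impaired against young in CA3 between 0 and 1 (1 without rat R2175, R2176, R2221, R2231, R2237 or R9781), for age of the wider list in CA3 between 0 and 1 (0 without rat R9780, R9876 or R9877), and for cognition of the wider list in CA1 between 0 and 2 (1 or 2 without rat R2184, R2233, R2238, R9865, R9872 or R9875). Cnih3 lost its call for CA1 against CA3 without rat R1922, R1923, R1930, R1931, R2175, R2176, R2182, R2184, R2185, R2189, R2221, R2231, R2233, R2235, R2237, R2238, R9781 or R9865, and for CA3 against DG without rat R2230 or any of these other than R1922, R1923, R1931 and R9781. No other of the 9 genes lost a subfield call.

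With the rat as a replicate block, the counts were 3 between CA1 and CA3, 0 between CA1 and DG and 6 between CA3 and DG, with Gria2 and Cacng8 gained and Cnih3 lost as given above, and no other call of the 9 genes changed. What depth limits was not tested for single genes.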

Other observations

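In 5 libraries the Ion Proton value of Cacng2 stood far above both other tables. The Ion Proton, Illumina and WT values were 4853, 251 and 88.3 in CA1 of unimpaired rat R2232, and 4164, 184 and 46.1 in CA1 of unimpaired rat R2230. In impaired rats they were 3157, 227 and 66.5 in CA3 of rat R1931, 3036, 296 and 71.5 in CA1 of rat R9874, and 2162, 218 and 66.9 in CA1 of rat R2233. Cacng3 was also off in these libraries, with Ion Proton and Illumina values of 2503 and 727 in R2232, 1531 and 738 in R2230, 1387 and 729 in R2233, 1201 and 632 in R9874, and 29.1 and 257 in CA3 of R1931. Gria2 in CA3 of rat R1931 was 31674 on Ion Proton and 12922 on Illumina. In CA1 of rat R2232 Cnih3 went the other way, with 5.75 on Ion Proton, 240.1 on Illumina and 137 in the WT table.

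The pair Gria2 and Cacng8 in CA1 of the rats below 9000 had r = 0.74 on Illumina (rho = 0.63, permutation p = 0.00066 for r and 0.0057 for rho, adjusted 0.0037 and 0.026, and r = 0.58 without the 2 farthest libraries) and r = -0.57 on Ion Proton. The reason for the opposite signs was not tested.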
